A study of Mus musculus with 8 samples.

Results

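Metabotropic glutamate receptors are G protein-coupled receptors through which glutamate slows, dampens or tunes synaptic transmission, in contrast to the ion channel receptors that carry it directly. Group I receptors, among them mGluR5 (Grm5), act through Gq and phospholipase C and are mostly found at postsynaptic sites. Group II receptors (mGluR2, Grm2, and mGluR3, Grm3) and group III receptors (mGluR4, Grm4, mGluR7, Grm7, and mGluR8, Grm8) act through Gi/o proteins, lower cyclic AMP and often sit on presynaptic terminals. In the retina, photoreceptors and bipolar cells release glutamate, and amacrine cells and retinal ganglion cells (RGCs) receive it from bipolar cells. The receptor best known there, mGluR6 of ON bipolar cells, and its gene Grm6 were not members of the group examined. The members were the 6 genes Grm2, Grm3, Grm4, Grm5, Grm7 and Grm8, found by symbol among the 33696 genes of the count tables, in which 8 genes of the family were listed.

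Nuclei had been sorted from mouse retina with antibodies against the RGC protein RBPMS and the neuronal protein NeuN and their RNA was sequenced nucleus by nucleus (snRNA-seq), a method that counts RNA molecules by unique molecular identifiers (UMIs). The 4 control libraries (replicates 1 to 4) came from female Piezo2f/f mice, whose Piezo2 alleles are floxed, and the 4 cKO libraries (replicates 10 to 13) from female Olig2-cre;Piezo2f/f mice, which carry the same floxed alleles and express Cre recombinase from the Olig2 locus, and all mice were 120 days old. Each library pooled 6 retinae, so that a library, not a mouse, was the replicate, and the labels gave no batch. The Olig2-cre line directs deletion to cells that express or descend from cells that expressed Olig2, chiefly the oligodendrocyte lineage, and there was no group with Olig2-cre alone.

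Libraries held 35697629 to 60088630 UMIs, and 34949 nuclei were retained, 15880 control and 19069 cKO, with a median of 3648 to 9481 UMIs per nucleus. Nuclei were assigned to classes by UMIs of marker genes, none of them a Grm gene, and the classes are called "-like" because only these markers define them. In all 28438 nuclei were assigned, of which 21745 were RGC-like, 1105 amacrine-like, 1800 bipolar-like, 1765 rod-like, 505 cone-like and 1262 Müller glia-like, and 6511 nuclei (18.6%) met no gate. Levels are given as CPM, the counts (UMIs) of a gene scaled to a total of 1000000 UMIs of all genes summed over the nuclei of a class in a library, as mean ± SD over 4 libraries of a group unless stated otherwise. Only relative levels were measured, so a lower CPM can reflect less RNA of the gene or more RNA of other genes. Piezo2 was low, at 14.5 ± 2.22 CPM in control and 12.4 ± 2.71 CPM in cKO RGC-like nuclei (SD, n = 4 each), and a 3′ count over the whole gene does not test the loss of a floxed part.

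Marker lists were summed in each class. The gate itself holds the list of a class high and the other lists low, so these sums are no independent check of the classes. Summed amacrine markers reached 1268 CPM in GABAergic and 1837 CPM in glycinergic amacrine-like nuclei of control libraries against 29.7 CPM in RGC-like nuclei. The bipolar list held Prkca and Car8, and these were not restricted to bipolar nuclei: in rod-like nuclei the list summed to 1088 CPM, and to 158 CPM when both genes were left out of the list and of the gate. Amacrine markers also ran at 97.6 to 207 CPM over control libraries in OFF cone bipolar-like and 103 to 195 CPM in rod bipolar-like nuclei, and at 17.1 to 148 and 25.2 to 75.6 CPM with the gate without Prkca and Car8. That second gate, chosen after the data were seen, assigned 1970 amacrine-like and 1546 bipolar-like nuclei, and its values are given below where it changed a call and for the main levels that it moved. It changed the bipolar list only. With either gate, bipolar-like nuclei were split by Grik1 and Tacr3 (OFF cone), then Prkca and Car8 (rod bipolar), then Trpm1 and Isl1 (ON cone). The rod bipolar-like class thus rested on at least 2 UMIs of Prkca and Car8 with both gates. RGC markers, at 2351 CPM in RGC-like nuclei of control libraries, were also present in rod-like (547 CPM), cone-like (368 CPM) and Müller glia-like nuclei (326 CPM). In Müller glia-like nuclei the endothelial marker Flt1 was at 1525 CPM in control libraries, while the other endothelial markers were at or below 1.55 CPM. Between libraries, 139 barcodes were shared, at most 11 by any pair.

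The genes differ greatly in length, which matters because nuclear RNA includes introns. In the GENCODE annotation of GRCm39, the build of the count reference, Grm7 spans 921.6 kb (chromosome 6, 110622542 to 111544191, plus strand), Grm8 860.1 kb (chromosome 6, 27275118 to 28135177, minus strand) and Grm5 551.2 kb (chromosome 7, 87233376 to 87784594, plus strand). Grm3 spans 242 kb (chromosome 5, 9534069 to 9776088, minus strand), Grm4 99 kb (chromosome 17, 27641361 to 27740377, minus strand) and Grm2 13.6 kb (chromosome 9, 106520294 to 106533870, minus strand). No listed gene overlapped a member on its own strand, and Grm2 and Grm7 each overlapped 1 listed gene on the opposite strand. Levels were therefore compared between genes only per 100 kb of gene: in control RGC-like nuclei Grm7 was at 157 CPM per 100 kb, Grm8 at 45.2, Grm3 at 44.6, Grm5 at 37.3, Grm4 at 33.7 and Grm2 at 3.87. On this scale Grm3, Grm4, Grm5 and Grm8 lay close together in RGC-like nuclei, Grm7 above them and Grm2 below.

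Each receptor had its own distribution over the 9 classes that were large enough to test, which leave out starburst amacrine-like and horizontal-like nuclei. Among these 9 classes Grm5 was highest in ON cone and rod bipolar-like nuclei, Grm3 in GABAergic amacrine-like nuclei, Grm7 in RGC-like and OFF cone bipolar-like nuclei, and Grm8 in rod-like and GABAergic amacrine-like nuclei. Grm4 was highest in GABAergic amacrine-like and RGC-like nuclei. Few nuclei in any of these classes held a Grm2 UMI, which is not scaled to the short span of the gene, 13.6 kb. The mean level of Grm2 was highest in GABAergic amacrine-like nuclei, from 15 control UMIs. The levels by class and library show these profiles together.

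**Figure D1:**
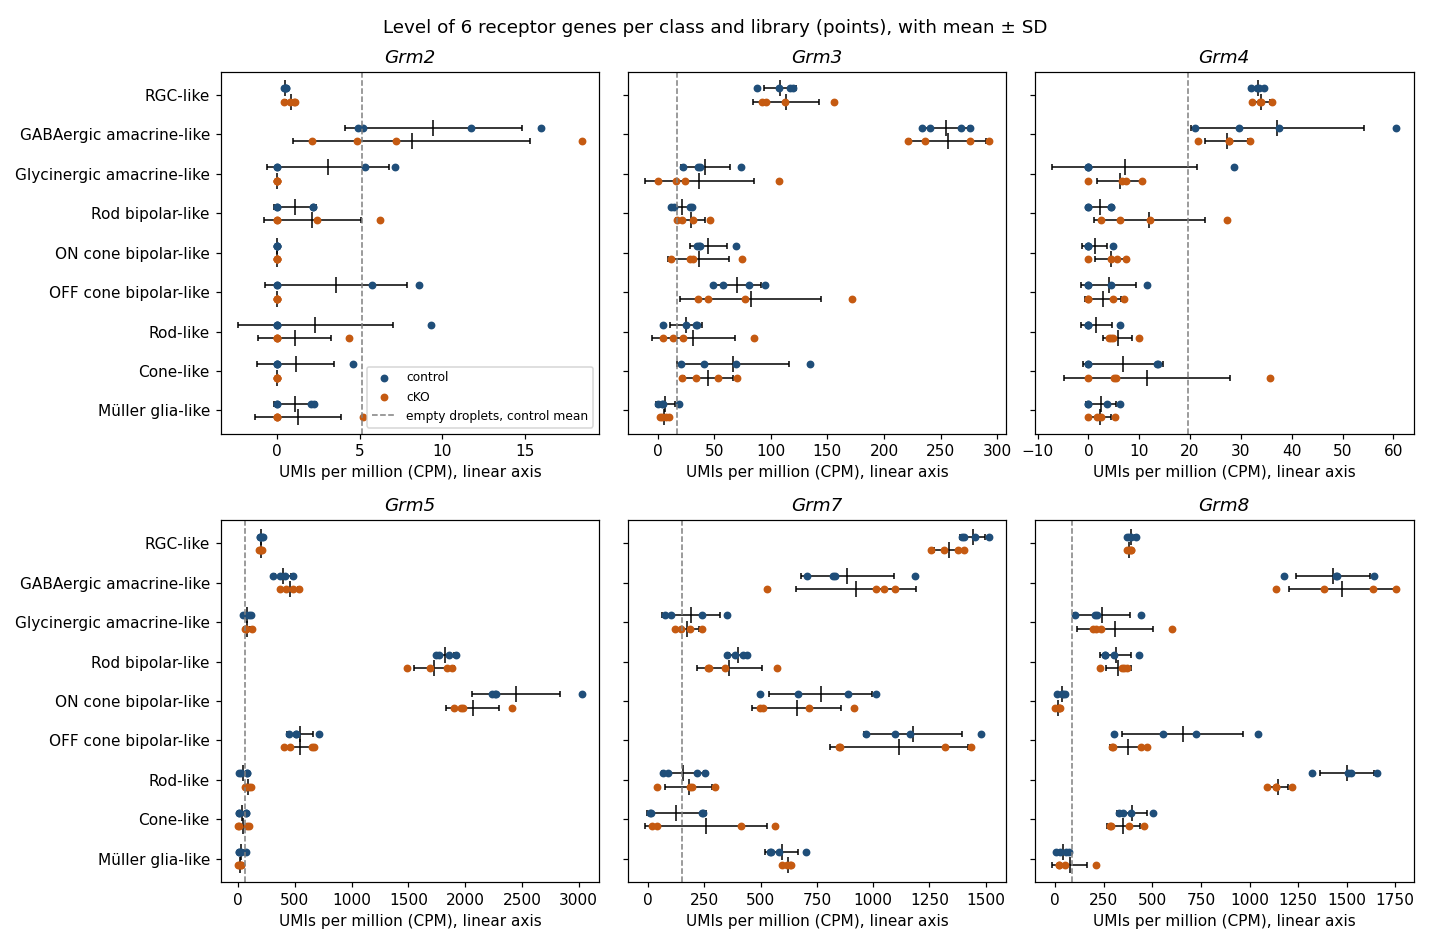
Levels of the 6 receptor genes in CPM (linear horizontal axes that differ between panels) in 9 marker-gated classes; each point is a library, blue control and orange cKO, black marks are mean ± SD (n = 4), and the dashed line is the control mean in empty droplets. Grm5 stands out in ON cone and rod bipolar-like nuclei and Grm8 in rod-like and GABAergic amacrine-like nuclei, whereas Grm7 is high in RGC-like and OFF cone bipolar-like nuclei, whose libraries overlap.

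Each class was compared with RGC-like nuclei of the same libraries by edgeR's quasi-likelihood test, and a gene was called at a Benjamini-Hochberg adjusted p under 0.05 and a log2 fold change beyond 0.5 in either direction. In control libraries 45 of 52 member and class pairs that passed the count filter were called, 13 higher and 32 lower than in RGC-like nuclei, with an adjusted p of at most 0.00147. Calls between classes were common for all genes, so the counts are read against the share of all tested genes. In GABAergic amacrine-like nuclei 5 of 6 members were called (all genes 19.2%), in glycinergic amacrine-like nuclei 5 of 5 (20.1%) and in all amacrine-like nuclei 4 of 6 (23.5%). In rod bipolar-like nuclei 4 of 5 were called (36.2%), in ON cone bipolar-like nuclei 5 of 5 (29.4%), in OFF cone bipolar-like nuclei 4 of 5 (18.7%) and in all bipolar-like nuclei 4 of 5 (39.1%). In rod-like nuclei 5 of 5 were called (42.4%), in cone-like nuclei 4 of 5 (35.1%) and in Müller glia-like nuclei 5 of 5 (45.9%). Grm2 passed the filter only in the amacrine-like and GABAergic amacrine-like comparisons, through the class in which it was higher. Grm4 held only 1 to 5 control UMIs in each of the 9 classes other than GABAergic amacrine-like and RGC-like nuclei. There it passed through RGC-like nuclei, in which it was higher, and its lower calls are part of these counts. In cKO libraries, fitted separately, 46 of 52 pairs were called (all genes 29.4%), and 43 pairs were called in both groups of libraries. With the second gate Grm5 (log2 0.60 ± 0.05) and Grm4 (-0.59 ± 0.13) were also called in all amacrine-like nuclei and Grm8 (-2.77 ± 0.18) in all bipolar-like nuclei of control libraries. In cKO libraries that gate added Grm4 in GABAergic amacrine-like (-0.53 ± 0.14) and Grm3 in OFF cone bipolar-like nuclei (-1.19 ± 0.34). In cKO libraries Grm8 went from -0.22 ± 0.22, not called, to -5.00 ± 0.41, called, in OFF cone bipolar-like nuclei, and from -0.31 ± 0.12, not called, to -3.56 ± 0.19, called, in rod bipolar-like nuclei. Its call in glycinergic amacrine-like cKO nuclei, -0.51 ± 0.14, was lost, at 0.15 ± 0.13.

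**Figure D2:**
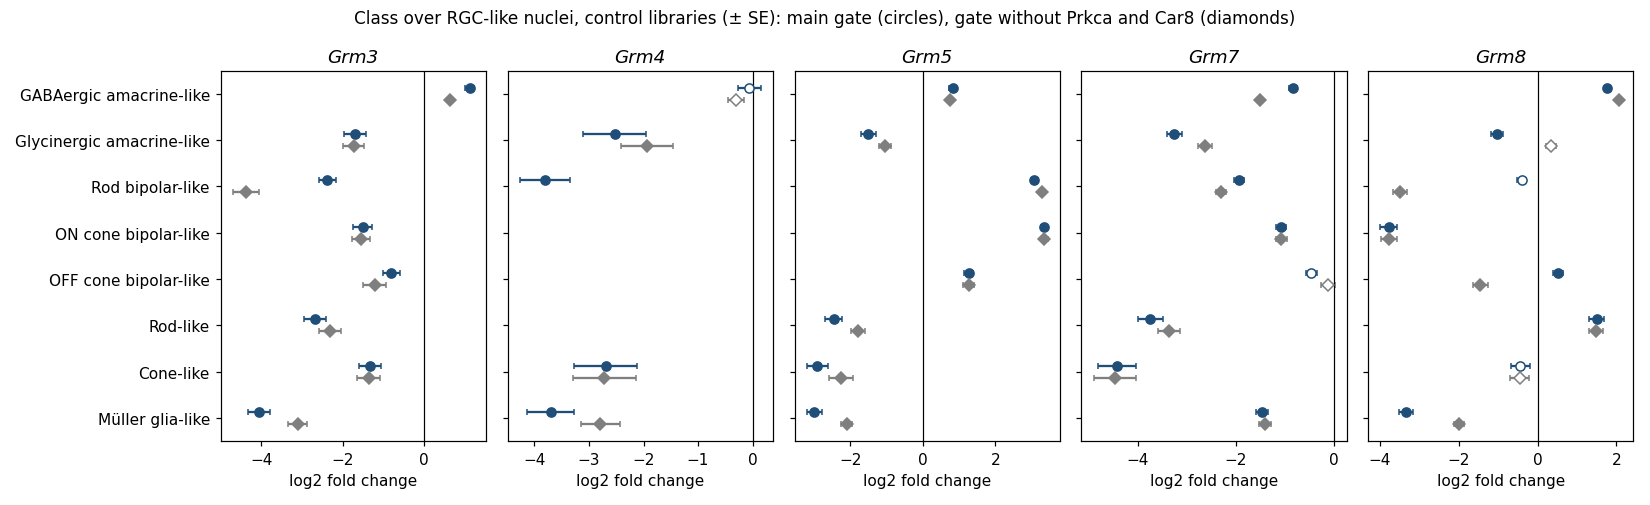
Log2 fold change of 5 receptor genes in each class over RGC-like nuclei in control libraries (± SE); circles are the main gate, diamonds the gate without Prkca and Car8, filled symbols passed the call rule, and pairs with 3 or fewer UMIs in the class are not drawn. Grm5 lies to the right in the bipolar-like classes under both gates, whereas Grm8 in rod bipolar-like and OFF cone bipolar-like nuclei moves far to the left under the second gate. Main gate points of Grm4 outside GABAergic amacrine-like nuclei rest on 4 or 5 UMIs in the class.

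Grm5, the group I receptor, was highest among the 9 classes in ON cone and rod bipolar-like nuclei. In ON cone bipolar-like nuclei of control replicates 1 to 4 it was at 2263, 2236, 2272 and 3028 CPM, and in rod bipolar-like nuclei at 1862, 1919, 1771 and 1746 CPM, so that each library of the former lay above each of the latter. Against 205 ± 11.7 CPM in RGC-like nuclei, the log2 fold change was 3.35 ± 0.09 (SE) in ON cone and 3.07 ± 0.10 in rod bipolar-like nuclei. OFF cone bipolar-like nuclei held 547 ± 116 CPM, log2 1.27 ± 0.13, well below either ON class, and their libraries overlapped those of GABAergic amacrine-like nuclei at 396 ± 73.3 CPM. GABAergic amacrine-like nuclei were in turn higher than RGC-like nuclei, log2 0.83 ± 0.09, and glycinergic amacrine-like nuclei lower, at 83.1 ± 32.4 CPM and log2 -1.5 ± 0.20. Rod-like, cone-like and Müller glia-like nuclei held 48.0 ± 38.8, 37.5 ± 35.3 and 27.9 ± 27.7 CPM, with overlapping libraries and all below the 60.1 ± 8.37 CPM of empty droplets, which hold free RNA only. With the second gate these levels were 78.8 ± 28.0, 67.7 ± 78.6 and 57.7 ± 28.0 CPM, near the empty droplet level. Without control replicate 1, their log2 fold change widened from -2.91 ± 0.30 to -3.91 in cone-like and from -2.99 ± 0.21 to -4.03 in Müller glia-like nuclei.

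With the main gate the share of nuclei with a Grm5 UMI set both ON classes above the others but did not part them from each other. After every nucleus had been thinned to 1000 UMIs, 76.9% ± 3.51 of ON cone and 77.3% ± 3.64 of rod bipolar-like nuclei held a Grm5 UMI in control libraries, against 33.4% ± 18.0 of OFF cone bipolar-like, 25.3% ± 3.99 of GABAergic amacrine-like and 15.8% ± 0.293 of RGC-like nuclei. Müller glia-like nuclei gave 1.09% ± 1.00, the lowest share among these classes. Unthinned, the shares were 91.8% ± 5.72 in ON cone bipolar-like nuclei and 2.56% ± 0.865 in Müller glia-like nuclei, at mean library medians of 3117 and 2796 UMIs per nucleus. The paired difference in level between ON cone and rod bipolar-like nuclei over all 8 libraries was 483 ± 358 (SD, n = 8 libraries, higher in 8 of 8, two-sided exact permutation p = 0.00781, adjusted over the 6 genes 0.0156), where the classes had been ranked on the control libraries among them. In the cKO libraries alone, which did not enter the ranking, ON cone bipolar-like nuclei were higher in 4 of 4, a number too small to reach 0.05. With the gate without Prkca and Car8, rod bipolar-like nuclei rose to 2173 ± 135 CPM and the difference shrank to 128 CPM (exact permutation test, adjusted p = 0.477). ON cone bipolar-like nuclei were still higher in mean level, but the classes were no longer separated. The thinned share went the other way with that gate. It was 86.1% ± 3.89 in rod and 77.1% ± 3.66 in ON cone bipolar-like nuclei of control libraries. In cKO libraries it was 82.2% ± 2.01 and 73.4% ± 4.29, and the difference in share was not tested. A stricter gate, which required 5 marker UMIs over 3 markers and 4 times those of any other class, gave 54.5 CPM (exact permutation test, adjusted p = 0.75).

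Grm3, the group II receptor of longer span, was highest among the 9 classes in GABAergic amacrine-like nuclei. There it was at 268, 233, 241 and 276 CPM in control replicates 1 to 4 and 276, 236, 221 and 293 CPM in cKO replicates 10 to 13. RGC-like nuclei held 119.7, 117, 107 and 88.2 CPM in the controls, so that no control library overlapped between the classes, and the log2 fold change was 1.12 ± 0.10 (0.65 ± 0.07 with the second gate). The paired difference was 145 ± 31.3 (SD, n = 8 libraries, higher in 8 of 8, two-sided exact permutation p = 0.00781, adjusted over the 6 genes 0.0156), and it was positive in 4 of 4 cKO libraries. The stricter gate left more than 10 GABAergic amacrine-like nuclei in 6 libraries. There the difference, 174 CPM, was no smaller than with the main gate but did not pass the threshold (exact permutation test, adjusted p = 0.0938). Fewer pairs raise the smallest p that this test can give, so no conclusion is drawn from it. All other classes were lower than RGC-like nuclei, with log2 fold changes of -1.69 ± 0.28 in glycinergic amacrine-like, -1.51 ± 0.23 in ON cone bipolar-like, -0.80 ± 0.21 in OFF cone bipolar-like, -1.32 ± 0.27 in cone-like and -2.67 ± 0.28 in rod-like nuclei. Rod bipolar-like nuclei were at 21.5 ± 9.68 CPM, log2 -2.37 ± 0.20, and at 5.25 ± 5.20 CPM with the second gate. With the main gate Müller glia-like nuclei had the lowest level, 6.72 ± 8.20 CPM from 13 UMIs, below the 17.3 ± 2.78 CPM of empty droplets. Their log2 fold change of -4.06 ± 0.27 was -5.29 without control replicate 1, and the second gate gave 13.9 ± 13.0 CPM, in mean above rod bipolar-like nuclei. Thinned to 1000 UMIs, 16.8% ± 2.70 of GABAergic amacrine-like and 9.99% ± 0.732 of RGC-like nuclei held a Grm3 UMI, and 47.3% ± 4.14 and 46.7% ± 5.88 did so unthinned.

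Grm2, the other group II receptor, was close to the limit of detection. The 259 GABAergic amacrine-like nuclei of control libraries held 15 Grm2 UMIs, 15.9, 5.22, 11.7 and 4.93 CPM in the 4 libraries, and the 10150 RGC-like nuclei held 47 UMIs, 0.526 ± 0.0444 CPM. The log2 fold change was 3.89 ± 0.65 in control and 2.97 ± 0.63 in cKO libraries. The second gate gave 11.5 ± 2.31 CPM in GABAergic amacrine-like nuclei, with every control library between 9.70 and 14.7 CPM. Empty droplets held 5.17 ± 1.18 CPM in control libraries, above the level of RGC-like nuclei. With the main gate, the GABAergic amacrine-like libraries at 5.22 and 4.93 CPM were near that level. In cKO libraries this class held 8.14 ± 7.15 CPM, against 6.70 ± 3.05 CPM in empty droplets. No Grm2 UMI was seen in 267 ON cone bipolar-like control nuclei, which allows a level of up to 3.71 CPM (3 counts of the total, counting error only), and each other class held 1 to 3 UMIs. The paired test against OFF cone bipolar-like nuclei gave 7.0 ± 4.89 (SD, n = 8 libraries, higher in 8 of 8, two-sided exact permutation p = 0.00781, adjusted over the 6 genes 0.0156), but the lower class held 2 UMIs in control and 0 in cKO libraries, so that most differences were against a count of 0 and their sign was fixed. The stricter gate gave 5.68 CPM (exact permutation test, adjusted p = 0.75).

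Grm4, a group III receptor, was even across libraries in RGC-like nuclei, at 33.2, 34.6, 31.9 and 33.6 CPM in control replicates 1 to 4, a mean of 33.3 ± 1.11 CPM. GABAergic amacrine-like nuclei held 60.6, 20.9, 37.4 and 29.6 CPM, which overlapped the RGC-like libraries on both sides, and the log2 fold change of -0.06 ± 0.21 was not called (adjusted p = 0.893). It was 0.21 without control replicate 2. The paired difference, -1.52 ± 13.3 (SD, n = 8 libraries, higher in 2 of 8, two-sided exact permutation p = 0.781, adjusted over the 6 genes 0.781), did not separate the classes. Levels in the remaining classes were 7.14 ± 14.3 CPM or less and rested on 1 to 5 UMIs per class in control libraries, below the 19.6 ± 3.00 CPM of empty droplets. ON cone bipolar-like nuclei held 1 Grm4 UMI, rod-like nuclei 2, OFF cone bipolar-like nuclei 3, and rod bipolar-like and cone-like nuclei 4 each. All 8 calls for Grm4 in control libraries were lower than RGC-like nuclei, and where a class held so few UMIs the size of the fold change is not given. Of RGC-like nuclei thinned to 1000 UMIs 3.29% ± 0.257 held a Grm4 UMI, and 23.1% ± 6.03 did so unthinned.

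Grm7, a group III receptor placed at transmitter release sites in many neurons, had its highest mean level among the 9 classes in RGC-like nuclei with the main gate. It was at 1396, 1455, 1404 and 1516 CPM in control replicates 1 to 4, and 68.7% ± 1.61 of RGC-like nuclei held a Grm7 UMI at 1000 UMIs per nucleus (94.5% ± 1.44 unthinned). OFF cone bipolar-like nuclei were next at 1162, 1482, 1096 and 970.5 CPM, overlapping the RGC-like libraries, with a log2 fold change of -0.46 ± 0.11 that did not pass the size threshold. With the second gate they rose to 1533 ± 286 CPM, above the 1435 ± 55.4 CPM of RGC-like nuclei in mean but again with overlap. The paired difference between RGC-like and OFF cone bipolar-like nuclei was 245 ± 251 (SD, n = 8 libraries, higher in 5 of 8, two-sided exact permutation p = 0.0625, adjusted over the 6 genes 0.0938). It was -153 CPM with the stricter gate (exact permutation test, adjusted p = 0.688). GABAergic amacrine-like nuclei followed at 886 ± 207 CPM, log2 -0.84 ± 0.08, and ON cone bipolar-like nuclei at 766 ± 229.6 CPM, log2 -1.08 ± 0.10, with overlapping libraries. The GABAergic amacrine-like level fell to 528 ± 58.9 CPM, log2 -1.52 ± 0.06, with the second gate.

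Müller glia-like nuclei were the glial class with a Grm7 signal, at 543, 548, 583 and 701 CPM in the controls and 631, 618, 594 and 636 CPM in cKO libraries. These values were all above the 151 ± 25.9 CPM of empty droplets, and 36.0% ± 3.29 of Müller glia-like nuclei held a Grm7 UMI at 1000 UMIs per nucleus (60.2% ± 7.39 unthinned). The 10 markers of RGCs, where Grm7 was high, summed in Müller glia-like nuclei to 204 to 406 CPM over control and 253 to 394 CPM over cKO libraries, and their part in this Grm7 level was not tested. Every other member was at 38.4 CPM or less in Müller glia-like control nuclei, below its own empty droplet level, although Grm8 rose to 106 ± 25.7 CPM, above that level, with the second gate. Rod bipolar-like nuclei held 399 ± 39.3 CPM of Grm7, log2 -1.94 ± 0.10, and glycinergic amacrine-like nuclei 191 ± 129 CPM, log2 -3.26 ± 0.15 (-2.63 ± 0.14 with the second gate). Cone-like nuclei were divided among libraries, at 239, 13.8, 6.91 and 242 CPM in control replicates 1 to 4 and 40.2, 411, 16.3 and 562 CPM in cKO replicates 10 to 13. The log2 fold change of cone-like over RGC-like nuclei, -4.42 ± 0.39, was -5.15 without control replicate 1 and -5.08 without control replicate 4. Rod-like nuclei held 155 ± 93.7 CPM, close to the empty droplet level.

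Grm8, a group III receptor, was highest among the 9 classes in rod-like and GABAergic amacrine-like nuclei. Rod-like nuclei held 1321, 1509, 1525 and 1655 CPM in control replicates 1 to 4, a log2 fold change of 1.5 ± 0.19 over RGC-like nuclei at 389 ± 20.4 CPM. GABAergic amacrine-like nuclei held 1638, 1449, 1176 and 1446 CPM, log2 1.75 ± 0.08, and overlapped the rod-like libraries. The paired difference between the classes was -128 ± 324 (SD, n = 8 libraries, higher in 3 of 8, two-sided exact permutation p = 0.312, adjusted over the 6 genes 0.375), with rod-like nuclei higher in 3 of 4 control and 0 of 4 cKO libraries. With the second gate GABAergic amacrine-like nuclei were the higher class, at 1713 ± 172 CPM against 1444 ± 126 CPM in the controls, and the difference over 8 libraries was -393 CPM (exact permutation test, adjusted p = 0.0156). The stricter gate turned it the other way, to 385 CPM over 6 libraries with rod-like nuclei higher (exact permutation test, adjusted p = 0.0938). The signal in rods was not sparse: at 1000 UMIs per nucleus 66.0% ± 3.52 of rod-like nuclei held a Grm8 UMI, against 50.1% ± 4.98 of GABAergic amacrine-like, 23.8% ± 1.16 of RGC-like and 1.60% ± 1.06 of Müller glia-like nuclei. Rod-like nuclei were shallow, with a mean library median of 1135 UMIs, and thinning retained 360 of their 623 control nuclei. Unthinned, 67.8% ± 7.84 held a UMI.

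Cone-like nuclei held 349, 331, 504 and 390.1 CPM of Grm8, and did not pass the test against RGC-like nuclei, log2 -0.44 ± 0.24 (adjusted p = 0.154). ON cone bipolar-like and Müller glia-like nuclei had the lowest levels with the main gate, 33.4 ± 18.1 and 38.4 ± 30.6 CPM, below the 86.2 ± 14.7 CPM of empty droplets, with log2 fold changes of -3.78 ± 0.21 and -3.34 ± 0.18. Müller glia-like nuclei were at 106 ± 25.7 CPM with the second gate, log2 -1.99 ± 0.12, above empty droplets and above rod bipolar-like nuclei. The remaining classes moved further with the gate. OFF cone bipolar-like nuclei held 1042, 553, 304 and 725 CPM in control libraries and were called higher, log2 0.51 ± 0.12, but the call was lost without control replicate 1 (log2 0.24, adjusted p = 0.261) or control replicate 4, and with the second gate the levels were 709, 25.6, 17.1 and 187 CPM and the log2 fold change -1.45 ± 0.20. Rod bipolar-like nuclei fell from 311 ± 81.5 to 41.7 ± 32.4 CPM, log2 -0.40 ± 0.12 and -3.50 ± 0.17, the second of which was called. Glycinergic amacrine-like nuclei rose from 240.2 ± 143 to 597 ± 271 CPM, and the log2 fold change from -1.03 ± 0.16 to 0.33 ± 0.13, which was not called. The summed amacrine markers in OFF cone and rod bipolar-like nuclei, 155 and 140.4 CPM in the main gate and 66.5 and 45.6 CPM in the second, moved with these levels, and their part in the result was not tested.

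Some classes were too small to test, and in starburst amacrine-like nuclei the mean control levels of Grm3, Grm7 and Grm8 were above those of all 9 tested classes. Starburst amacrine-like nuclei, marked by acetylcholine genes, numbered 18 in control and 20 in cKO libraries and held Grm8 at 4677, 2189, 4829 and 4398 CPM in control replicates 1 to 4, and Grm7 at 2255, 1707, 905 and 2853 CPM. Grm3 was at 361 ± 194 CPM in them. Grm2 was at 18.7 ± 21.6 CPM, in mean also above the 9 tested classes but from only 2 UMIs. Grm5 had no UMI in 18 control nuclei, which allows up to 26.8 CPM. With the second gate the Grm8 level of starburst amacrine-like nuclei was 2793 ± 965 CPM and the Grm5 level 129.6 ± 123 CPM. Horizontal-like nuclei, 1 to 57 per library, held Grm7 at 338 ± 172 CPM and Grm3 at 113 ± 97.9 CPM in the controls. No Grm4 UMI was seen in 72 control horizontal-like nuclei, which allows up to 8.85 CPM.

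RGCs comprise many types, and the members were compared between RGC-like nuclei that carried at least 2 UMIs of a subset marker and all other RGC-like nuclei of the same library. Foxp2 marks a family of direction-selective and small-field types, Opn4 (melanopsin) or Eomes the intrinsically photosensitive RGCs, Spp1 chiefly alpha RGCs, and Cartpt ON-OFF direction-selective types among others. In control libraries 11 of 25 member and subset pairs passed the call rule, 2 higher and 9 lower, and in cKO libraries 12 of 26. By subset, 3 of 5 members were called in Foxp2-positive nuclei (all genes 11.4%), 4 of 5 in Opn4/Eomes-positive (11.1%) and 3 of 5 in Spp1-positive nuclei (20.2%). There were 1 of 5 in Chrm2-positive (5.61%) and 0 of 5 in Cartpt-positive nuclei (5.04%). In the latter 2 members had an unadjusted edgeR p under 0.05 (all genes 3472 of 16000), and neither passed the size threshold. In cKO libraries the share of all genes was 10.4%, and 10 pairs were called in both groups. Grm3 was called in no subset in either group, but with the second gate it was called in Opn4/Eomes-positive nuclei of cKO libraries, log2 0.51 ± 0.09. Tbr1-positive nuclei were too few to test.

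**Figure D3:**
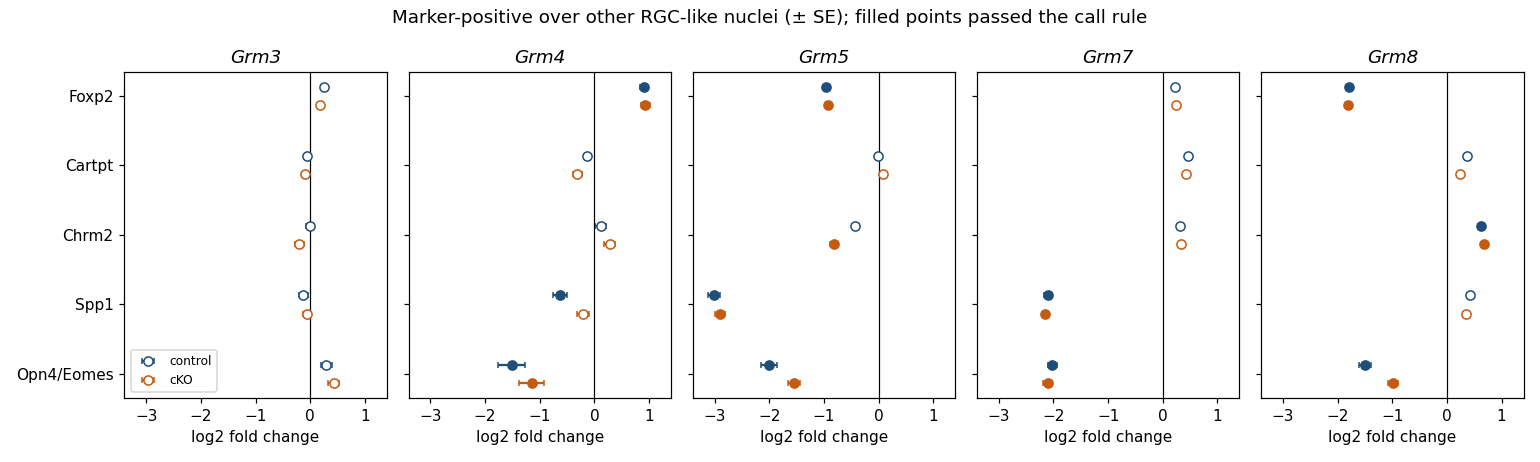
Log2 fold change (± SE) of 5 receptor genes in marker-positive over all other RGC-like nuclei for 5 subsets, control libraries in blue and cKO libraries in orange; filled points passed the call rule. Grm5 and Grm7 are far to the left in Spp1-positive and Opn4/Eomes-positive nuclei, and Grm8 in Foxp2-positive nuclei.

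Grm7, present in most RGC-like nuclei, was reduced in 2 subsets. In Spp1-positive nuclei it was at 396, 455, 286 and 266 CPM in control replicates 1 to 4 against 1452, 1542, 1475 and 1596 CPM in the other RGC-like nuclei, log2 -2.10 ± 0.07. In Opn4/Eomes-positive nuclei it was at 355, 358, 305 and 468 CPM, log2 -2.02 ± 0.08. No positive library reached the level of any negative library in either subset. In cKO libraries the log2 fold changes were -2.15 ± 0.05 and -2.11 ± 0.08. In the Foxp2, Cartpt and Chrm2 subsets Grm7 was higher by log2 0.22 to 0.45 in control libraries, with an adjusted p of at most 2.47e-07 but below the size threshold.

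Grm5 had the widest spread among RGC subsets. It was at 40.4, 31.4, 17.2 and 19.3 CPM in Spp1-positive control nuclei, log2 -3.01 ± 0.11, at 59.4 ± 38.0 CPM in Opn4/Eomes-positive nuclei, log2 -2.01 ± 0.14, and at 111 ± 6.09 CPM in Foxp2-positive nuclei, log2 -0.97 ± 0.04. The Spp1-positive level was below the 60.1 ± 8.37 CPM of empty droplets, and the Opn4/Eomes-positive level was not above it. In Chrm2-positive nuclei the log2 fold change was -0.42 ± 0.06 in control libraries, short of the size threshold, and -0.82 ± 0.07 in cKO libraries, where it was called. Whether the groups differed in this was not tested.

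Grm8 and Grm4 moved in opposite directions in Foxp2-positive nuclei. Grm8 was at 151, 131, 116 and 105 CPM against 419, 437, 414 and 480.5 CPM in the rest, log2 -1.80 ± 0.05, and Grm4 at 53.1, 51.9, 54.3 and 59.1 against 29.8, 31.6, 27.8 and 28.3 CPM, log2 0.90 ± 0.07. The positive and negative libraries overlapped for neither gene. In Opn4/Eomes-positive nuclei both were lower, with a log2 fold change of -1.49 ± 0.11 for Grm8 and of -1.52 ± 0.25 for Grm4. The Grm4 level there, 10.1 ± 8.19 CPM, was below the 19.6 ± 3.00 CPM of empty droplets. Grm8 was higher in Chrm2-positive nuclei, 564 ± 76.2 CPM, log2 0.62 ± 0.05. In Spp1-positive nuclei, in which Grm5 and Grm7 were low, Grm8 was 499.9 ± 65.3 against 381 ± 20.2 CPM, log2 0.41 ± 0.05 without passing the size threshold, and Grm4 was lower in control libraries, log2 -0.63 ± 0.13, but not called in cKO libraries, -0.20 ± 0.11 (edgeR adjusted p = 0.155). Grm2 passed the filter in Foxp2-positive nuclei of cKO libraries, with a log2 fold change of 1.62 ± 0.41 at 2.01 ± 0.632 CPM. It entered the test through the nuclei in which it was higher, as 1 of the 12 cKO calls, and its level was below the 6.70 ± 3.05 CPM of cKO empty droplets. Spp1-positive nuclei were deeper than the rest, 18498 against 8639.7 UMIs per nucleus in control libraries. Depth also differed for Opn4/Eomes (11877 against 8879), Chrm2 (10723 against 8808), Cartpt (9902 against 8722) and, the other way, Foxp2 (7862 against 9185). The part of depth in the subset differences was not tested.

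Control and cKO libraries were compared within each class to ask whether receptor levels differed with the Olig2-cre;Piezo2f/f genotype. None of the 41 member and class pairs that passed the filter was called by edgeR (all genes 0.00129%), and 4 had an unadjusted p under 0.05 (all genes 2663 of 77533 tests). DESeq2 called 0 of the pairs, with 3 under 0.05 (all genes 1317 of 77533). In RGC-like nuclei Grm7 was 1443 ± 55.6 CPM in control and 1339 ± 66.6 CPM in cKO libraries, log2 -0.17 ± 0.07 (edgeR adjusted p = 0.992). For the other members in RGC-like nuclei the log2 fold change of cKO over control was 0.58 ± 0.28 for Grm2, 0.00 ± 0.14 for Grm3, -0.03 ± 0.08 for Grm4, -0.11 ± 0.07 for Grm5 and -0.09 ± 0.06 for Grm8. These were small beside the differences between classes, except for Grm2, which rested on 47 control and 71 cKO UMIs.

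The pair with the smallest unadjusted p was Grm8 in rod-like nuclei. Control replicates 1 to 4 held 1321, 1509, 1525 and 1655 CPM and cKO replicates 10 to 13 1139, 1138, 1217 and 1092 CPM, so that the groups did not overlap. The log2 fold change was -0.40 ± 0.11 (edgeR adjusted p = 1.00), -0.33 ± 0.11 with the second gate and -0.08 with nuclei thinned to 2000 UMIs. Thinning kept only rod-like nuclei of at least 2000 UMIs, where the mean library median was 1135 in control and 1101 in cKO libraries. Rod markers summed to 6352 CPM in control and 6397 CPM in cKO rod-like nuclei, and amacrine markers to 167 and 173 CPM. Markers of lens, a tissue near the retina, were higher in mean in control libraries: the 3 lens genes summed to 222 CPM (5.81 to 608) in control and 8.18 CPM (1.98 to 19.0) in cKO rod-like nuclei, and to 38.2 (0.528 to 98.1) and 3.53 CPM (0.935 to 5.81) in RGC-like nuclei. Control means were above cKO means in all 11 classes with overlapping ranges in most, and the part of lens RNA in the genotype values was not tested. Grm8 was also lower in cKO OFF cone bipolar-like nuclei, 442, 290.5, 297 and 473 CPM, log2 -0.76 ± 0.31 (edgeR adjusted p = 1.00), with overlapping groups in a class whose Grm8 level moved with the gate. In all bipolar-like nuclei the log2 fold change of Grm8 was -0.34 ± 0.16 (edgeR adjusted p = 1.00), and -1.36 ± 0.44 with the second gate (edgeR adjusted p = 1.00). In glycinergic amacrine-like nuclei it was 0.53 ± 0.34 and turned to -0.19 ± 0.32 with the second gate, called with neither.

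**Figure D4:**
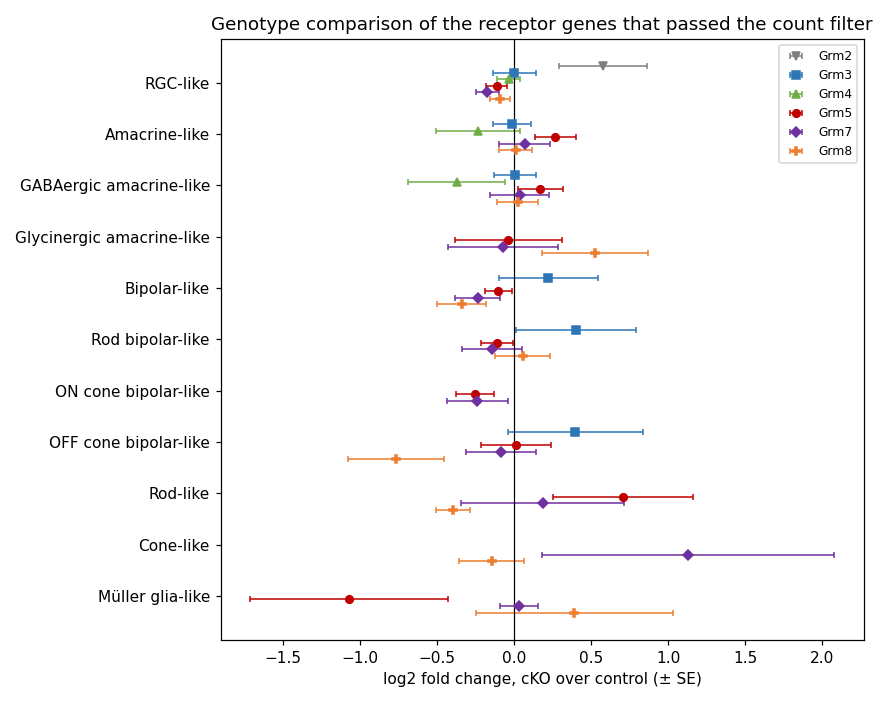
Log2 fold change of cKO over control (± SE, 4 libraries a group) for each receptor gene and class that passed the count filter, with a symbol per gene. Most pairs lie within 0.5 of 0, the widest bar is that of Grm7 in cone-like nuclei, and none passed the call rule.

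Whether the genotype difference itself differed between amacrine-like and RGC-like nuclei was tested as an interaction over all 8 libraries. No member was called (all genes 0.0117%), and 2 of 6 had an unadjusted edgeR p under 0.05 (all genes 848 of 17059). For Grm5 the interaction was log2 0.38 ± 0.11 (edgeR adjusted p = 0.393): amacrine-like nuclei held 308, 264, 257 and 347 CPM in control and 428, 358, 288 and 374 CPM in cKO libraries, with overlap, while RGC-like nuclei held 205 ± 11.7 and 199 ± 10.3 CPM. With the second gate it was 0.13 ± 0.07. For Grm7 it was 0.25 ± 0.12 (edgeR adjusted p = 0.984). DESeq2 called 0 of the 6 members.

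The genes through which these receptors work differed between classes as well. Of the Gq list used by group I receptors, ON cone bipolar-like nuclei had 1 higher and 3 lower of 8 tested (list median log2 -0.74, all genes -0.23, of which 29.4% were called), with Plcb4, a phospholipase C, at 1.58 ± 0.10 and the inositol trisphosphate receptor gene Itpr1 at -1.38 ± 0.18. Rod bipolar-like nuclei had 2 higher and 3 lower of 8 tested (median -0.21, all genes -0.10, 36.2% called), with Plcb4 at 0.85 ± 0.10 and Plcb1 at -2.78 ± 0.15. The bipolar classes in which Grm5 was high thus held more Plcb4 and less Itpr1 than RGC-like nuclei, and Itpr1 was -2.69 ± 0.18 in rod bipolar-like nuclei. In GABAergic amacrine-like nuclei 0 of 8 genes of this list were called, against 19.2% of all genes (median -0.15).

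Of the Gi/o list used by groups II and III, GABAergic amacrine-like nuclei had 4 higher and 3 lower of 12 tested (median -0.05, all genes -0.05, 19.2% called). The adenylyl cyclase gene Adcy8 was higher, log2 1.73 ± 0.10, and Adcy1 and Adcy2 were lower, -1.10 ± 0.13 and -0.78 ± 0.09, while Kcnj9, a G protein-gated potassium channel subunit, was higher at 1.47 ± 0.13. Rod-like nuclei, in which Grm8 was high, had 1 higher and 8 lower of 12 tested (median -1.47, all genes -0.25, 42.4% called), with the G protein gene Gnaz at 1.08 ± 0.21 and Adcy2 at -3.69 ± 0.25. Müller glia-like nuclei, which held Grm7, had 1 higher and 8 lower of 12 tested (median -2.05, all genes -0.12, 45.9% called), with Gnai2 at 2.86 ± 0.14 and Adcy2 at -4.51 ± 0.19.

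Of the binding partners and scaffolds, rod-like nuclei had 2 higher and 6 lower of 11 tested and cone-like nuclei 2 higher and 6 lower of 11 tested (medians -1.35 and -1.58, all genes -0.25 and -0.33, 42.4% and 35.1% called). Elfn1, a synaptic adhesion protein that binds group III receptors across the synapse, was higher in both, log2 1.42 ± 0.18 and 1.34 ± 0.22, and lower in rod bipolar-like, GABAergic amacrine-like and Müller glia-like nuclei, -2.45 ± 0.30, -2.45 ± 0.29 and -3.48 ± 0.34. Shank2, a postsynaptic scaffold gene, was higher in ON cone and rod bipolar-like nuclei, 2.67 ± 0.10 and 2.11 ± 0.10, and Frmpd4, a scaffold that binds group I receptors, was lower, -5.36 ± 0.25 and -3.31 ± 0.14. Among RGC subsets Elfn1 was lower in Spp1-positive nuclei, -3.05 ± 0.19, where 20.2% of all genes were called in control libraries. Of the glutamate loading and uptake genes, rod-like nuclei had 4 higher and 2 lower of 6 tested (median 2.85, all genes -0.25, 42.4% called), led by the transporter gene Slc1a7 at 7.27 ± 0.26 and the vesicular transporter gene Slc17a7 at 4.79 ± 0.18, and Müller glia-like nuclei had 4 higher and 2 lower of 7 tested (median 1.52, all genes -0.12, 45.9% called), led by the glial transporter gene Slc1a3 at 7.70 ± 0.16. In the genotype comparison no gene of these lists that passed the count filter was called in any class, where 0.00129% of all tests were called.

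Grm6 gave a point of reference. It was at 497 ± 30.5 CPM in ON cone and 409 ± 32.2 CPM in rod bipolar-like control nuclei, 14.6 ± 12.5 CPM in OFF cone bipolar-like and 0.84 ± 0.414 CPM in RGC-like nuclei. Grm5 thus had its highest levels in the same classes as Grm6, but was at 547 ± 116 CPM in OFF cone bipolar-like and 396 ± 73.3 CPM in GABAergic amacrine-like nuclei, and Grm6 had no UMI in the latter.

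Genes with the most similar profiles were sought over 36 values, 9 classes in 4 control libraries, by Pearson's r of log2(CPM + 1). Classes of a library share its depth and the 4 libraries share classes, so these r values describe the profiles and are given without a p. For Grm5 they were Frmd3 (r = 0.919), Fam135b (r = 0.916) and Nyap2 (r = 0.909), for Grm7 Rims1 (r = 0.928), Ptprd (r = 0.928) and Rimbp2 (r = 0.910), and for Grm3 Gpr158 (r = 0.903), Cyfip2 (r = 0.847) and Ptprn2 (r = 0.819). For Grm8 they were Plxna2 (r = 0.844), Ssh2 (r = 0.821) and Dync1i2 (r = 0.777), and for Grm4 D130043K22Rik (r = 0.837), Clec18a (r = 0.790) and Dock11 (r = 0.785). Grm2 had the least similar leading gene, Mei1 (r = 0.744), in a profile with many zeros.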

How the data were processed

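The deposited files hold raw UMI counts for all barcodes of 8 libraries, which the authors made with Cell Ranger (version 7.0.0 in the submitters' processing notes) and the GRCm39 reference transcriptome named in the study's methods. Coordinates are from a separate GENCODE annotation of GRCm39. Nuclei were called by an order-of-magnitude step and a test against the ambient profile, filtered on UMIs, genes and mitochondrial share, and cleared of 1378 scored doublets (3.79%). A class gate required 3 marker UMIs over 2 markers and 2 times those of any other class. For each library, the UMI counts of a class were added up and tested with edgeR 4.0.16 (R 4.3.3) by the quasi-likelihood test with TMM factors, filterByExpr, a library term for classes and subsets, and Benjamini-Hochberg adjustment over all genes tested. DESeq2 1.42.0, other normalization, filters, gates, nuclei, depth and each library left out were alternatives. Scripts were tested on simulated data. The highest class and the next were compared by an exact sign-flip permutation test. For each gene these classes were ranked on the control libraries, which also entered the test. Named genes were the members, and from each pathway list up to 2 called genes with the largest change in each direction, and the 3 genes of most similar profile. A planned RGC subset and a further gene are not reported here. The members and lists were chosen with earlier results of these data known. The labels do not say that libraries shared no mice, so p-values measure the spread between libraries. Intervals and limits cover counting error only.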

Additional observations from a re-analysis of the deposited data

Results flagged for a closer look

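In each of 96 combinations of gene, class and group with 4 libraries, the highest and the lowest library were compared with the others by Dixon's gap ratio, and 6 stood apart, where chance gives about 1 in 20. Grm5 and Grm3 in ON cone bipolar-like nuclei of control libraries each had 1 high library, Grm5 at 3028 CPM against 2236 to 2272 CPM and Grm3 at 69.0 CPM against 35.1 to 37.8 CPM. Grm5 in ON cone bipolar-like nuclei of cKO libraries had a library at 2415 CPM against 1900.2 to 1984 CPM. Grm7 in GABAergic amacrine-like nuclei of cKO libraries had a low library, 527 CPM against 1015 to 1099 CPM. Grm8 had a high library in glycinergic amacrine-like nuclei of cKO libraries, 599.8 CPM against 193 to 234 CPM, and in Müller glia-like nuclei of cKO libraries, 208 CPM against 18.9 to 50.6 CPM.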

How the results depend on the processing

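No paired analysis was possible because the control and cKO libraries share no replicate numbers. Over all settings the class comparison gave 40 to 48 calls in control and 41 to 49 in cKO libraries, the subsets 6 to 12 and 8 to 14, and the interaction 0. The number of pairs tested changed between settings and the share of all genes is not given for each, so these counts are a range only. The lowest subset count in control libraries, 6, came from thinning to 2000 UMIs, which left the Spp1 and Opn4/Eomes subsets untested. These subsets held 3 and 4 of the 11 calls of the main setting, so the 6 include calls that are not among the 11. Without the low-count filter 1 genotype pair was called, Grm7 in cone-like nuclei (all genes 216 of 232452 tests). With the strict gate the highest class exceeded the next by 5.68 CPM for Grm2, 174 for Grm3 and 54.5 for Grm5, none past the threshold, and the difference turned to -153 CPM for Grm7 and 385 CPM for Grm8. For Grm3 and Grm8 that gate left fewer libraries, which raises the smallest p that the test can give. With the order-of-magnitude step alone Grm8 was at -422 CPM, and thinned to 2000 UMIs Grm2 was at 9.67 CPM and no longer passed. The bipolar gate without Prkca and Car8, chosen after seeing the data, left 3 of 6 genes with the same highest class and gave -6.94 CPM for Grm4, 128 for Grm5, -126 for Grm7 and -393 for Grm8. With a library left out Grm4 ranged from -5.65 to 0.34 CPM. Among single genes, the log2 fold change of Grm8 in OFF cone bipolar-like control nuclei became -2.10 (strict gate), -0.22 (thinned) and -1.45 (second gate), and that of Grm8 in glycinergic amacrine-like nuclei 0.33 in control and 0.15 in cKO libraries (second gate). Grm4 in GABAergic amacrine-like control nuclei became 0.016 without doublet removal and -0.36 to 0.21 with a library left out (above 0 without control replicate 2 or 4). For genotype in RGC-like nuclei Grm3 became -0.00415 (no low-count filter), -0.000504 (strict gate), -0.00121 (no doublet removal), and -0.17 to 0.080 with a library left out (negative without control replicate 4, -0.078, or cKO replicate 10), and Grm4 0.0035 (thinned) and -0.082 to 0.014 with a library left out (0.014 without cKO replicate 11). The Grm5 interaction became -0.16 with the strict gate. Calls lost without 1 library were Grm8 in OFF cone bipolar-like control nuclei (log2 0.24 without control replicate 1, 0.46 without 4), Grm7 in GABAergic amacrine-like cKO nuclei (-0.42 without cKO replicate 12) and Grm8 in glycinergic amacrine-like cKO nuclei (-0.41 to -0.34 without cKO replicate 10, 11 or 12). Calls gained were Grm4 in all amacrine-like (-0.66 without control replicate 1), Grm8 in rod bipolar-like (-0.63 without 3), Grm7 in OFF cone bipolar-like control (-0.59 without 2) and Grm3 in OFF cone bipolar-like cKO nuclei (-1.39 without cKO replicate 13). The cause was not tested. Scarce UMIs limited Grm2 in all classes and Grm4 outside GABAergic amacrine-like and RGC-like nuclei, and few nuclei limited starburst and horizontal-like classes.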
